A study of Mus musculus with 16 samples.

Results

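The genes that copy DNA were examined in embryonic mouse hearts that had lost alleles of Ing4 and Ing5. The set holds 40 genes, chosen by name for their role in replication, with earlier results of these data known: the origin recognition complex (Orc1 to Orc6), licensing factors, the MCM helicase and its activators, replicative polymerases and primase, the sliding clamp and its loader, nucleotide synthesis, Okazaki fragment maturation and chromatin assembly. All 40 of 40 were found by their gene ID among the 27179 gene IDs of the count table, and all 40 passed the filter on low counts that left 15785 genes for testing. RNA was sequenced from hearts at embryonic day 10.5 in 4 genotypes with 4 libraries each. The labels do not say whether a library is 1 embryo, and each library is called a heart here. Wild-type hearts carried all 4 alleles of Ing4 and Ing5. Ing4+/- hearts had lost 1 Ing4 allele and kept both Ing5 alleles. Ing5-/- hearts had lost both Ing5 alleles and kept both Ing4 alleles, and Ing4+/- Ing5-/- hearts had lost 3 of the 4 alleles. The hearts came from 7 litters, and the sources used here state neither the strain nor the deleted exons.

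Before a cell divides, the origin recognition complex marks the sites where copying will start, and Cdc6 and Cdt1 load the ring of MCM2 to MCM7 onto the DNA there, a step called licensing. In S phase the loaded rings are joined by Cdc45 and the GINS proteins, unwind the DNA and are followed by the polymerases. ING4 and ING5 are subunits of complexes built around the acetyltransferase HBO1 (Kat7), which acetylates histone H3 and has been linked to licensing, so the set asks whether the transcripts of this machinery differ when these subunits are lost. In most cell types the genes of this machinery are switched on together towards S phase by E2F transcription factors.

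In these hearts the replication genes stood at nearly the same level in every genotype. None of the 40 members passed the test in any of 5 pairwise comparisons or in the interaction of the Ing4 and Ing5 genotypes (edgeR quasi-likelihood test, p-values adjusted over 15785 genes by Benjamini-Hochberg, threshold 0.05). Calls were rare among all genes too, from 0 to 1.16% in each contrast, so a count of 0 does not set the members apart. DESeq2's Wald test called 1 member in each of 2 comparisons, Rrm2 in Ing4+/- Ing5-/- against wild-type and Pold1 in Ing4+/- Ing5-/- against Ing4+/- hearts, and 0 in the other 4 contrasts. In each of the 6 contrasts the edgeR 95% interval of every member lay within a 1.5-fold difference in either direction. In Ing4+/- Ing5-/- against wild-type hearts it lay within 1.25-fold for 35 of 40. Rrm2, the small subunit of ribonucleotide reductase, came nearest to the threshold, with lower values in hearts without Ing5.

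Levels are read counts scaled to the TMM-corrected library size (CPM), given as mean ± SD over 4 hearts, or log2 fold changes ± SE from edgeR. Libraries held 19753100 to 35664331 counted reads, and the 40 members took 0.357 to 0.413% of them. Ing5 stood at 28.9 to 42.3 CPM in the 8 hearts with both Ing5 alleles and at 18.5 to 25.1 CPM in 7 of the 8 hearts labelled Ing5-/-, with Ing5-/- 1 at 29.3 CPM inside the range of the former. Ing4 stood at 32.0 to 36.3 CPM in the 8 hearts labelled Ing4+/- and at 42.6 to 60.7 CPM in 7 of the 8 others. The library labelled wild-type 2, at 28.2 CPM, was below every Ing4+/- heart, against its label. The tissue matched its label: all 10 cardiomyocyte markers were present in every heart, and none of the 6 endoderm and liver markers exceeded 14.6 CPM in any heart. The highest were Alb and Afp at 14.6 and 14.1 CPM, Ttr was at 0 in 1 library and Hnf4a in 11. The libraries Ing4+/- 4, Ing5-/- 1 and Ing4+/- Ing5-/- 2 stood apart on the principal components of all genes. Of these, Ing5-/- 1 had the lowest cardiomyocyte markers, at 18829 summed CPM where the others had 26682 to 32462, and the highest epicardial markers, at 1177 where the others had 347 to 579. In such bulk RNA, fewer cycling cells and less RNA per cycling cell cannot be told apart.

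The levels within the set were compared per kb of gene length, and they spread over 23.1-fold. The highest means over the 16 hearts belonged to Mcm6 at 104.7 CPM per kb, Rrm2 at 103.8 and Pcna, the sliding clamp that holds polymerases on DNA, at 103.1. Their SDs over the 16 hearts were 8.22, 12.3 and 5.09, so the order of these 3 is within their spread. Rrm1 at 88.4, Mcm7 at 78.3, Mcm3 at 77.6 and Mcm2 at 70.5 CPM per kb followed. Of the 10 highest members 5 were MCM helicase genes, and the sixth, Mcm5 at 54.8, ranked next after them. Gmnn at 69.3 and Rfc2, a subunit of the clamp loader, at 62.7 CPM per kb were the others among the 10 highest.

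**Figure D1:**
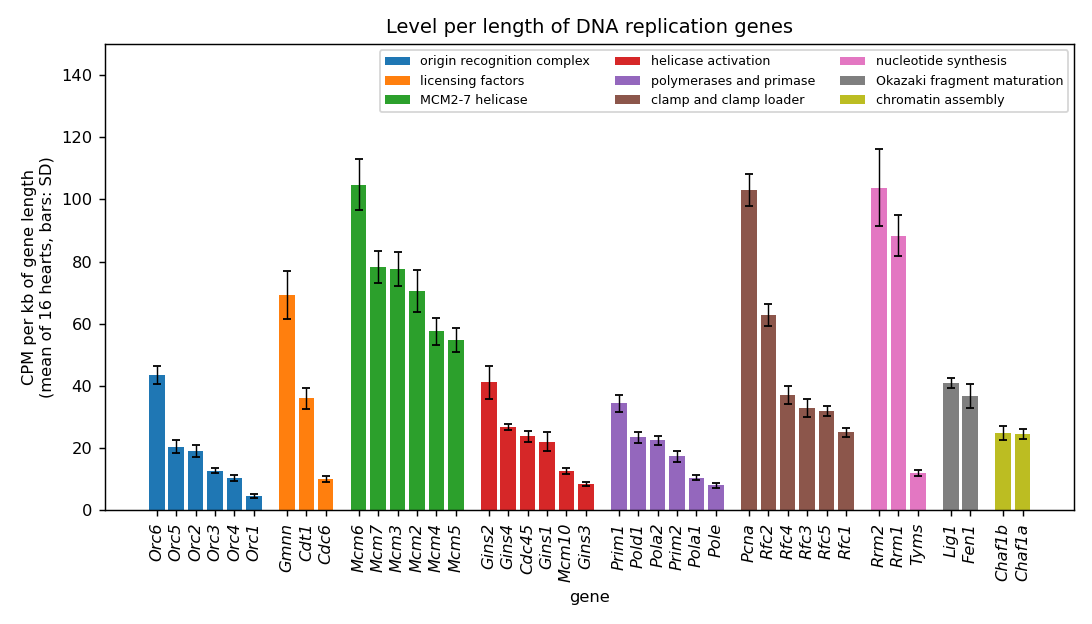
Bars show the mean level of each of the 40 genes over 16 hearts in CPM per kb of gene length, error bars the SD, and colours the role in replication. The MCM helicase genes, Pcna, Rrm1 and Rrm2 stand high, at 54.8 to 104.7 CPM per kb, and Orc1 is lowest at 4.53.

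At the other end stood Orc1, the largest subunit of the origin recognition complex and one that is known to be made periodically, at 4.53 CPM per kb. The other subunits ranged from 10.4 (Orc4) to 43.4 CPM per kb (Orc6). Subunits of 1 complex thus differed widely per length, an order that depends on the deposited gene length. Without division by length, Orc3 was highest of them at 80.3 CPM, Orc6 stood at 71.8 and Orc1 was again lowest at 13.7. Pole and Pola1, the catalytic subunits of the leading-strand polymerase and of the priming polymerase, were also low, at 8.01 and 10.4 CPM per kb. Geminin (Gmnn), which binds and blocks Cdt1, stood above Cdt1 per length in every heart. The Cdt1 to Gmnn ratio per length was 0.558 ± 0.049 (SD, n = 4) in wild-type and 0.512 ± 0.098 in Ing4+/- hearts. The ratio was 0.468 ± 0.102 in Ing5-/- and 0.565 ± 0.031 in Ing4+/- Ing5-/- hearts. These ratios overlapped between all genotypes. In CPM, without division by length, the mean of Cdt1 was above that of Gmnn in every genotype. The means were 82.9 and 66.6 CPM in wild-type and 76.1 and 73.9 in Ing5-/- hearts. In the hearts Ing4+/- 4 and Ing5-/- 1, Gmnn was above Cdt1 in CPM too.

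Some of the promoters hold a sequence feature that the choice by name did not use. RefSeq (GRCm38.p6) windows from 250 bases before to 50 bases after the transcription start were matched for 32 of the 40 members. An E2F word (TTTCCCGC, TTTGGCGC, TTTCGCGC or TTTGCCGC on either strand, overlapping matches counted separately) occurred in 13 of these 32 members (40.6%). The same words occurred in 2.6% of all 27025 genes with a window and in 4.55% of the 11871 tested genes with one. The 13 are Cdc6, Cdt1, Gins3, Lig1, Mcm3, Mcm5, Mcm6, Mcm7, Orc1, Orc3, Pola1, Pold1 and Rfc3, and their 19 matches lay between bases -165 and 39 with a median of -41. The word CCAAT, bound by NF-Y, was found in 20 of 32 members (62.5%) against 42.5% of tested genes, and TTTGAA, a word of mitotic genes, in 4 (12.5%) against 14.4%. A match is a description of the letters and not a shown binding site. Mcm5 and Mcm6 are printed because their E2F words overlap head to head, Orc1 as the member with the lowest level, and Rrm2 because the tests below turn on it and it has no such word in its window. Each line is the 250 bases before the start, with E2F words in capitals: Mcm5 at chr8:75109259-75109508 (+ strand), Mcm6 at chr1:128359706-128359955 (- strand), Orc1 at chr4:108579204-108579453 (+ strand) and Rrm2 at chr12:24708004-24708253 (+ strand).
Mcm5: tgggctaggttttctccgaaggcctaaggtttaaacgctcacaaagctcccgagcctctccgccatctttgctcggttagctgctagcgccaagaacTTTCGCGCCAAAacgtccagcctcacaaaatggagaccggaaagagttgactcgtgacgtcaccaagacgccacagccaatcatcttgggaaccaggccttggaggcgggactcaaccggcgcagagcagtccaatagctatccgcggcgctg
Mcm6: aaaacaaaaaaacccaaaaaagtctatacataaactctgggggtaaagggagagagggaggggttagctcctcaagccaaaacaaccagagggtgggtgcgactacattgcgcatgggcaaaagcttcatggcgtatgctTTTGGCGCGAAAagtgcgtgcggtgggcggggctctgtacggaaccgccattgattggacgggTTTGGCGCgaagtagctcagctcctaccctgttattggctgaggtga
Orc1: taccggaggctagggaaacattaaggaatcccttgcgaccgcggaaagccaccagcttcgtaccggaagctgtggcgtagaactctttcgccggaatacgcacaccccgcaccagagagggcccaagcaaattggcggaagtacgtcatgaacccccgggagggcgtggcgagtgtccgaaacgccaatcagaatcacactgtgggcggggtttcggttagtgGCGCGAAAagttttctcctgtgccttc
Rrm2: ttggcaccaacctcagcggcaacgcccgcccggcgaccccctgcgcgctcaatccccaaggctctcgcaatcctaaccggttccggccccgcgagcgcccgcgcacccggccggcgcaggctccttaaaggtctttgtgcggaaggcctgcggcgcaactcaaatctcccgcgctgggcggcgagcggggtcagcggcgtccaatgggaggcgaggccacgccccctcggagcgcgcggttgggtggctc
Against wild-type, members with and without a word had medians on the same side of 0. In Ing4+/- Ing5-/- hearts the median log2 fold change from wild-type was -0.019 for the 13 with a word. It was -0.023 for the 19 with a window but no word. For Ing4+/- Ing5-/- against Ing4+/- hearts the medians were 0.013 and -0.013.

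Levels varied little from heart to heart. The coefficient of variation within genotypes had a median of 8.0% over the 40 members, and for 34 of them the highest of the 16 hearts was less than 1.5 times the lowest. The 40 members together summed to 4003 ± 79 CPM in wild-type hearts and 3880 ± 140 in Ing4+/- hearts. Hearts without Ing5 had 3854 ± 272 (Ing5-/-) and 3833 ± 167 CPM (Ing4+/- Ing5-/-). The 3 mutant means lay below the wild-type mean, but single hearts of each mutant genotype reached into or past the wild-type range of 3912 to 4104 CPM.

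**Figure D2:**
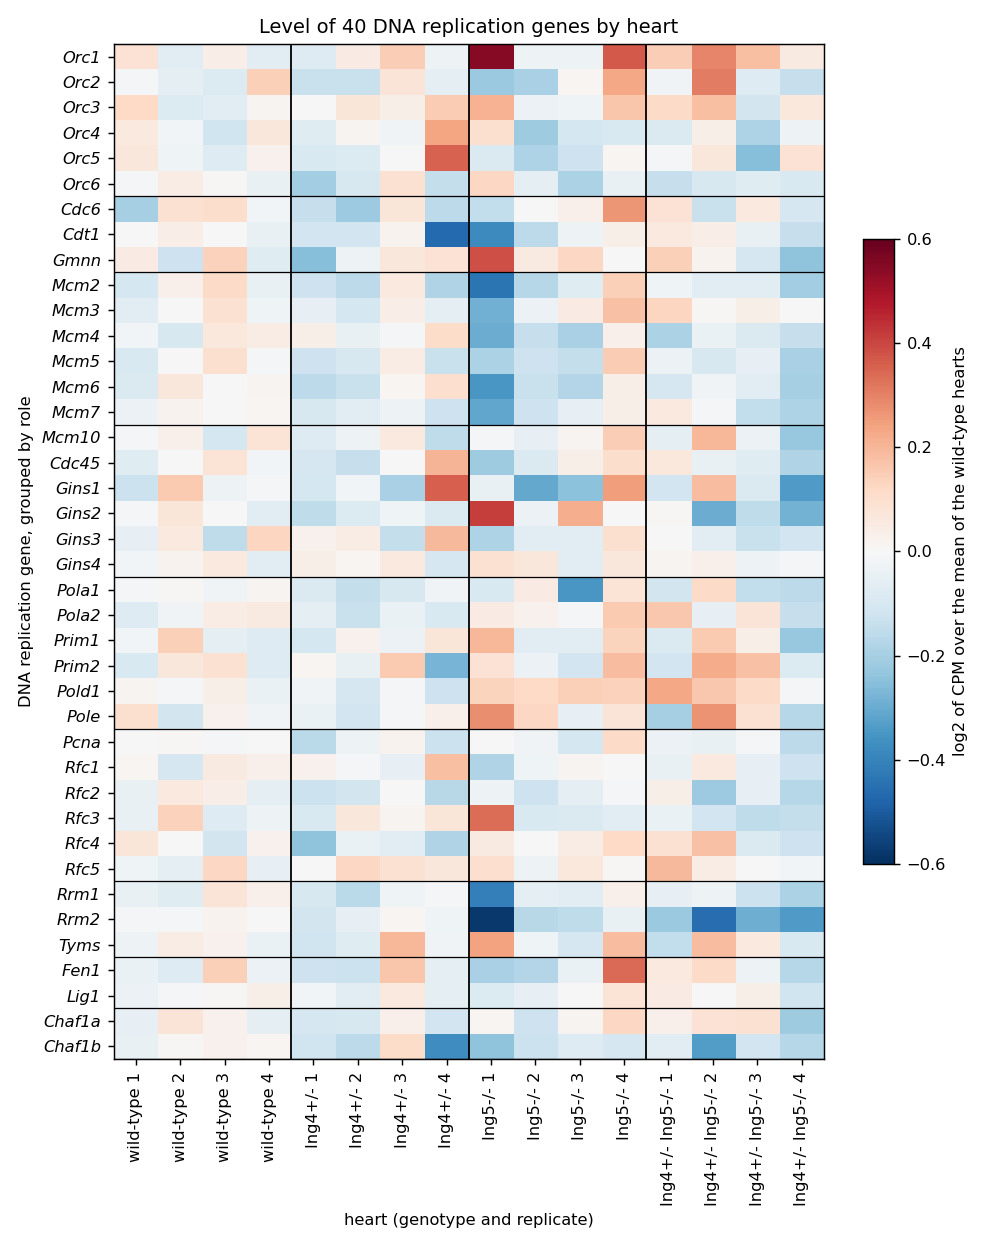
Colours give the log2 ratio of each gene's CPM in each heart to its mean over the 4 wild-type hearts, with genes in rows by role and hearts in columns by genotype. Most cells are pale, and Ing5-/- 1 holds both the lowest value of 12 members and the highest of 10.

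Over the 16 single hearts the members' median log2 ratio to the wild-type mean ran from -0.139 to 0.092. Ing5-/- 4 had 34 of 40 members above the wild-type mean (median log2 ratio 0.092), while Ing4+/- Ing5-/- 4 had 36 of 40 below it (-0.139). These 2 hearts are littermates, from litter 7. The heart Ing5-/- 1 had the lowest values of the 16 for Mcm2, Mcm3, Mcm4, Mcm6, Mcm7, Rrm1 and Rrm2 and the highest for Orc1, Gins2, Gmnn and Rfc3. It was also the heart with the low cardiomyocyte and high epicardial markers, and the part of these in its values was not tested.

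The contrast with the most alleles lost is Ing4+/- Ing5-/- against wild-type hearts, which differ in 3 of 4 alleles. Here 0 of 40 members were called, against 0.855% of all genes tested. At an unadjusted p under 0.05 there was 1 member higher (Pold1) and 1 lower (Rrm2), together 5.0% of the set against 11.4% of all genes. The members' median log2 fold change was -0.030, beside 0.003 over all genes, and 27 of 40 lay below 0 (49.2% of all genes did). The point estimates ranged from -0.33 (Rrm2) to 0.17 (Orc1). In 4 members all Ing4+/- Ing5-/- hearts were below all wild-type hearts (Rrm2, Chaf1b, Orc6 and Pcna), which was so for 4.71% of all genes, and in 0 members were they all above (5.45% of all genes).

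**Figure D3:**
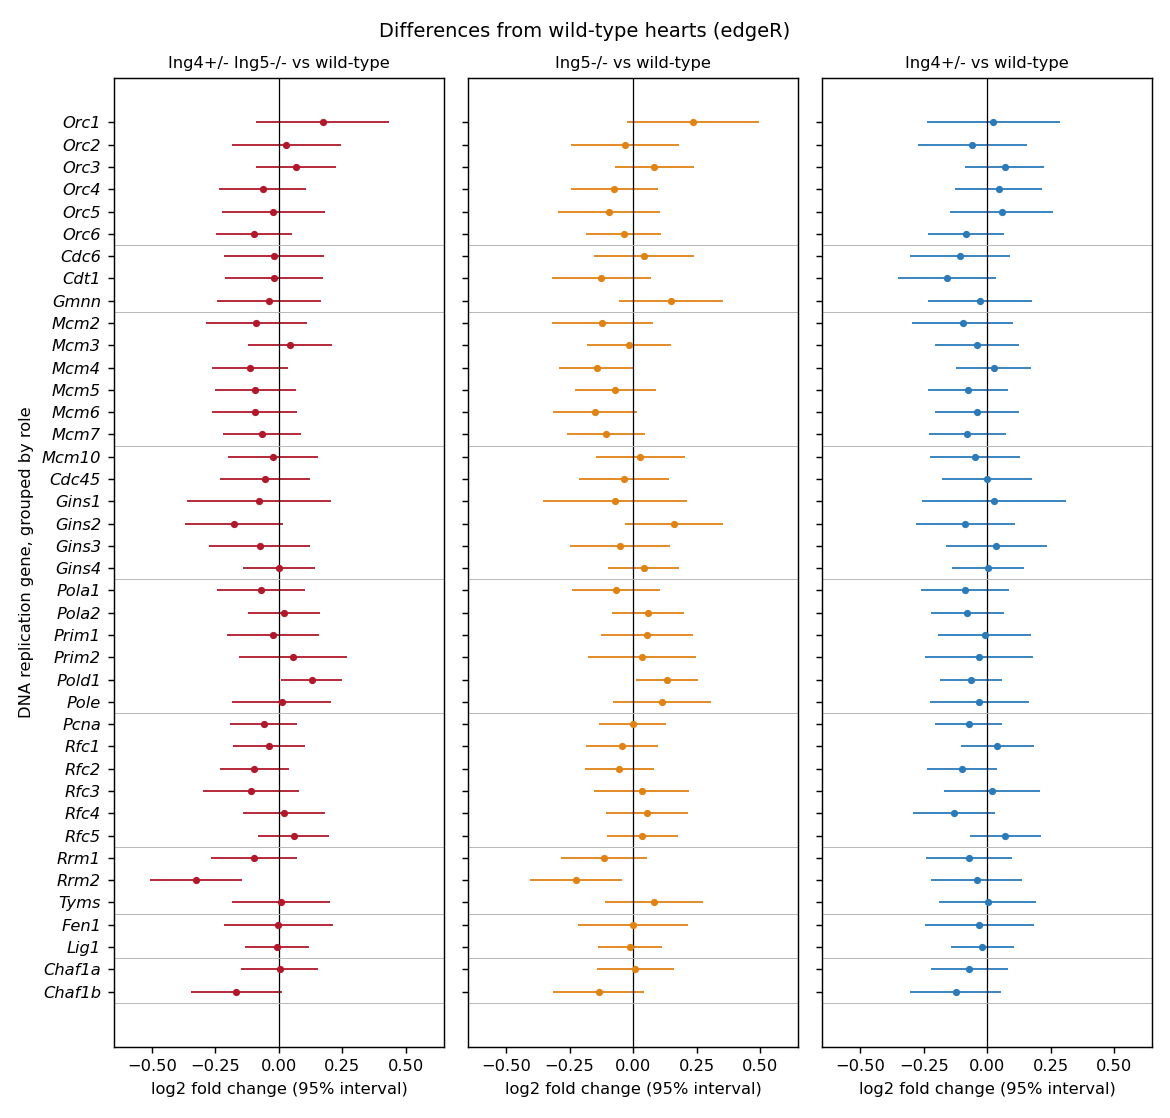
Points are edgeR log2 fold changes of the 40 members against wild-type hearts and bars their 95% intervals, not adjusted for the number of genes. In Ing4+/- Ing5-/- and in Ing5-/- hearts the bars of Rrm2 and Pold1 leave 0, and in Ing4+/- hearts none does.

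Ribonucleotide reductase makes the deoxynucleotides for DNA synthesis from a large subunit (Rrm1) and a small one (Rrm2). Rrm2 stood at 249, 248, 253 and 249 CPM in the 4 wild-type hearts and at 231, 241, 252 and 245 CPM in the Ing4+/- hearts. It stood at 167, 222, 225 and 242 CPM in the Ing5-/- hearts and at 214, 182, 204 and 197 CPM in the Ing4+/- Ing5-/- hearts. Every heart without Ing5 was below every wild-type heart, and every Ing4+/- Ing5-/- heart was also below every Ing4+/- heart, while Ing5-/- hearts overlapped those of Ing4+/-. The log2 fold change against wild-type was -0.33 ± 0.09 in Ing4+/- Ing5-/- hearts (95% interval -0.51 to -0.14, edgeR adjusted p = 0.0962) and -0.22 ± 0.09 in Ing5-/- hearts (adjusted p = 0.473). Against Ing4+/- hearts it was -0.28 ± 0.09 in Ing4+/- Ing5-/- hearts (adjusted p = 0.123). None of these passed the adjusted threshold. Without Ing5-/- 1 the difference of Ing5-/- from wild-type hearts was -0.12. Both the test and that library, which entered the shared estimate of spread, changed the outcome. With it kept, DESeq2's Wald test gave an adjusted p of 0.0232 against wild-type. The edgeR fit of the 2 groups alone, which leaves out all Ing5-/- hearts, gave 0.00576. With only Ing5-/- 1 left out, the edgeR adjusted p was 0.00348 against wild-type and 0.00745 against Ing4+/- hearts. Without all 3 libraries that stood apart it was 0.00611 (log2 fold change -0.29) and 0.0357 (-0.24). In the opposite direction, litter as a block gave an adjusted p of 0.564 against wild-type at -0.34. Without the library labelled wild-type 2, whose Ing4 level went against its label, the difference from wild-type was -0.33 (adjusted p = 0.215).

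Hearts of the same litter were also set side by side. Rrm2 was lower in the Ing4+/- Ing5-/- heart than in its wild-type littermate by log2 differences of -0.453 in litter 4 and -0.290 in litter 6. Against Ing4+/- littermates the differences were -0.410, -0.304 and -0.314 in litters 4, 6 and 7. Against Ing5-/- littermates they were 0.152 in litter 1 and -0.293 in litter 7. The median of the 40 members was 0.095 in the former and -0.242 in the latter, where 38 of 40 were below 0. The value of litter 1 is against the mean of 2 Ing5-/- hearts, at 167 and 222 CPM, and the Ing4+/- Ing5-/- heart at 214 lay between them. Wild-type and Ing5-/- hearts never shared a litter.

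Rrm1 did not move with Rrm2 to the same extent. Its levels were 360, 353, 392 and 379 CPM in wild-type hearts and 347, 331, 365 and 369 with 1 Ing4 allele lost. They were 279, 358, 354 and 379 CPM in Ing5-/- hearts and 359, 363, 339 and 325 with 3 alleles lost, and the genotypes overlapped. The ratio of Rrm2 to Rrm1, both per length, was 1.24 ± 0.05 (SD, n = 4) in wild-type and 1.26 ± 0.05 in Ing4+/- hearts, against 1.14 ± 0.03 in Ing5-/- and 1.06 ± 0.09 in Ing4+/- Ing5-/- hearts. The 8 hearts without Ing5 lay between 0.918 and 1.17 and the 8 with it between 1.18 and 1.34, without overlap but with neighbouring edges. Since Rrm2 was looked at for its difference, this ratio is a description and was given no test. In Ing5-/- 1 the ratio was 1.10, so the low Rrm2 of that heart went with a low Rrm1. Tyms, which makes thymidylate, stood at 45.1 ± 1.3 CPM in wild-type and 45.3 ± 4.8 in Ing4+/- Ing5-/- hearts.

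**Figure D4:**
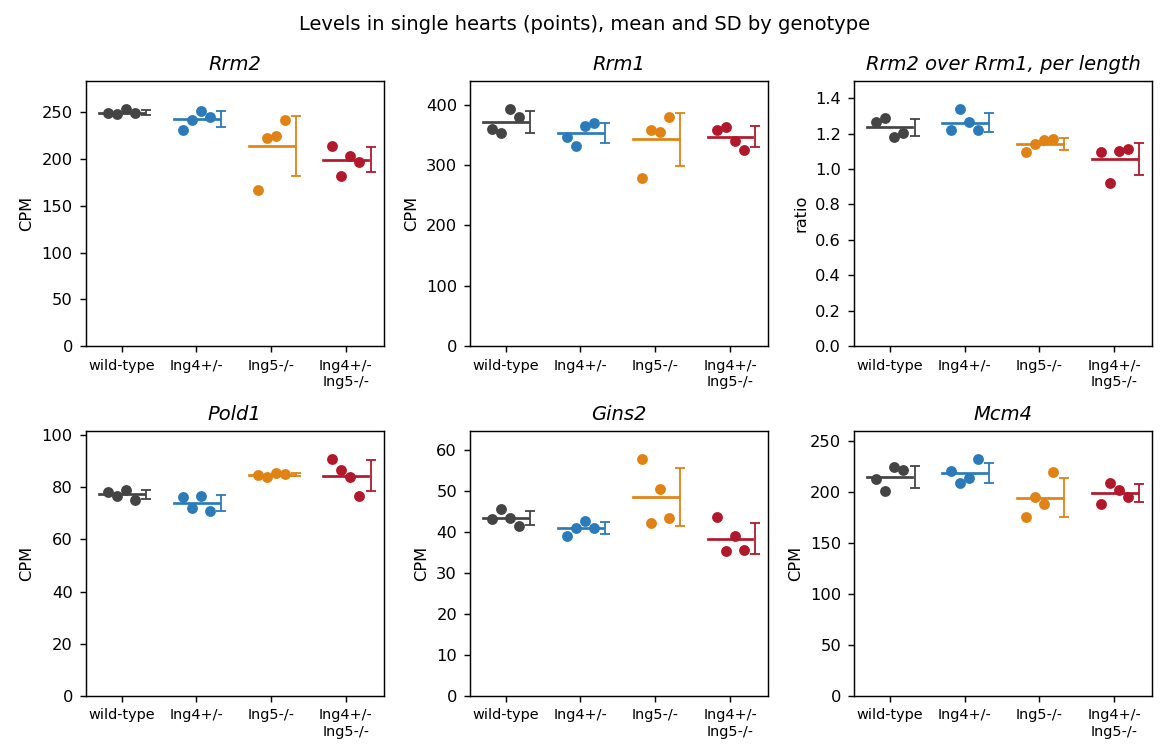
Points are single hearts, in CPM for 5 genes and as a ratio per length for Rrm2 over Rrm1, with a line at the genotype's mean and a bar for its SD. All 8 hearts without Ing5 lie below the wild-type hearts in Rrm2 and at or below 1.17 in the ratio, while Gins2 and Mcm4 overlap between genotypes.

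The polymerases showed 1 member on the other side. Pold1, the catalytic subunit of polymerase delta, which copies the lagging strand, stood at 78.2, 76.8, 79.1 and 75.2 CPM in wild-type and at 76.2, 72.1, 76.7 and 70.9 in Ing4+/- hearts. It stood at 84.8, 83.9, 85.4 and 85.1 CPM in Ing5-/- hearts and at 90.8, 86.5, 83.8 and 76.8 in Ing4+/- Ing5-/- hearts. All Ing5-/- hearts were above all wild-type hearts, and Ing4+/- Ing5-/- 4 fell back into the wild-type range. The differences were small, at 0.13 ± 0.06 against wild-type in both genotypes (edgeR adjusted p = 0.403 for Ing4+/- Ing5-/- and 0.496 for Ing5-/-). Against Ing4+/- hearts the Ing4+/- Ing5-/- value was 0.19 ± 0.06 (adjusted p = 0.117). The other 5 polymerase and primase genes ranged from -0.07 (Pola1) to 0.06 (Prim2) in Ing4+/- Ing5-/- against wild-type hearts. Pola1 stood at 57.8 ± 0.66 CPM in wild-type and 55.0 ± 5.0 in Ing4+/- Ing5-/- hearts, Prim1, the catalytic primase subunit, at 52.4 ± 3.8 and 51.6 ± 5.9, and Pole at 56.2 ± 3.3 and 56.6 ± 8.9.

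The MCM helicase genes, the end point of licensing, showed no called difference. In Ing4+/- Ing5-/- against wild-type hearts 5 of 6 had a log2 fold change below 0 (median -0.091), and in Ing5-/- against wild-type hearts 6 of 6 did (median -0.114), with adjusted p-values no lower than 0.529. Mcm4 stood at 213, 201, 225 and 222 CPM in wild-type hearts and at 175, 195, 188 and 220 in Ing5-/- hearts. In Ing4+/- Ing5-/- hearts it stood at 189, 209, 202 and 195 CPM and in Ing4+/- hearts at 220, 209, 214 and 232, and both contrasts overlapped. Its difference was -0.14 ± 0.07 for Ing5-/- against wild-type (edgeR adjusted p = 0.529) and -0.14 ± 0.07 for Ing4+/- Ing5-/- against Ing4+/- (0.398). Mcm2 stood at 251 ± 17 CPM in wild-type, 231 ± 38 in Ing5-/- and 236 ± 13 in Ing4+/- Ing5-/- hearts, and Mcm5 at 195 ± 10, 186 ± 21 and 183 ± 8.9. Summed over the 6 genes, the level was 1400 ± 50 CPM in wild-type and 1353 ± 54 in Ing4+/- hearts, which kept both Ing5 alleles. Hearts without Ing5 summed to 1303 ± 152 (Ing5-/-) and 1334 ± 53 CPM (Ing4+/- Ing5-/-). The mean of each mutant genotype thus lay below that of wild-type. Among single hearts, Ing5-/- 1 was lowest at 1124 CPM and Ing5-/- 4 highest at 1494. These sums were outside the wild-type range of 1335 to 1458 on either side. For Mcm5 alone, Ing5-/- 4 stood apart, at 217 CPM where the others of its genotype had 171 to 179. Without Ing5-/- 1 the Mcm4 difference from wild-type was -0.095.

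Genes that load the helicase were compared next. The 6 subunits of the origin recognition complex had a median log2 fold change of 0.004 in Ing4+/- Ing5-/- against wild-type hearts, with 3 below 0. Orc1 stood at 13.4, 12.1, 13.0 and 12.1 CPM in wild-type and at 14.0, 15.5, 14.3 and 13.1 in Ing4+/- Ing5-/- hearts. Only 2 Ing5-/- hearts were higher than these, at 18.5 and 16.3, beside 12.4 and 12.4 in the others of that genotype. Its interval was the one that reached furthest up, to 0.43 in Ing4+/- Ing5-/- and to 0.50 in Ing5-/- hearts. Orc2 stood at 64.9 ± 4.6 CPM in wild-type and 66.2 ± 9.6 in Ing4+/- Ing5-/- hearts, and Orc6 at 74.6 ± 1.8 and 69.7 ± 1.4.

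Among the licensing factors, Cdc6 stood at 48.5 ± 4.6 CPM in wild-type and 47.8 ± 3.6 in Ing4+/- Ing5-/- hearts. Cdt1, its partner in loading, stood at 83.0, 85.2, 83.2 and 80.3 CPM in wild-type hearts and 76.7, 76.5, 84.0 and 59.9 in Ing4+/- hearts. It stood at 63.6, 74.4, 81.2 and 85.0 CPM in Ing5-/- hearts and 86.4, 85.1, 80.5 and 75.4 with 3 alleles lost. The lowest hearts of these groups, Ing4+/- 4 and Ing5-/- 1, are among the libraries that stood apart. Without Ing4+/- 4 the difference of Ing4+/- from wild-type was -0.069, in place of -0.16. Gmnn stood at 68.9, 61.1, 73.2 and 63.3 CPM in wild-type and 55.9, 65.2, 69.7 and 70.9 in Ing4+/- hearts. It stood at 87.0, 69.2, 72.5 and 66.8 CPM in Ing5-/- and 73.6, 67.7, 62.1 and 56.3 in Ing4+/- Ing5-/- hearts, overlapping throughout.

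For helicase activation, Gins2 gave the lowest p of the set between Ing4+/- Ing5-/- and Ing5-/- hearts. This GINS subunit stood at 43.0, 45.5, 43.3 and 41.3 CPM in wild-type and 39.0, 40.9, 42.5 and 40.8 in Ing4+/- hearts. It stood at 57.7, 42.2, 50.4 and 43.4 CPM in Ing5-/- and 43.5, 35.2, 38.9 and 35.6 in Ing4+/- Ing5-/- hearts. The last 2 groups overlapped, with 1 Ing4+/- Ing5-/- heart, at 43.5, above 2 of the 4 Ing5-/- hearts. The difference was -0.34 ± 0.09 (edgeR adjusted p = 0.490), and within litters it was -0.182 in litter 1 (against the mean of 2 Ing5-/- hearts) and -0.287 in litter 7. The litter 7 value lay near that of the whole set, whose median in that pair was -0.242, with 38 of 40 members below 0. In litter 1 the median of the set was 0.095, with 14 of 40 below 0. Without the 3 libraries that stood apart the Gins2 difference was -0.21. By the GENCODE M21 annotation, 67.3% of the exonic bases of Gins2 overlap Gse1 on the opposite strand. The libraries were stranded, but whether counting used the strand is not stated in what was at hand, so reads of this pair may be mixed. Smaller shares of the exonic bases of Orc2 (29.8%), Rfc2 (15.1%) and Rfc4 (12.7%) overlap genes on the opposite strand, and Pcna and Tyms have pseudogene copies by name with which reads could be shared. Mcm10, which helps the helicase start, stood at 44.9 ± 2.4 CPM in wild-type and 44.2 ± 5.4 in Ing4+/- Ing5-/- hearts, and Cdc45 at 51.7 ± 2.3 and 49.7 ± 3.4.

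Pcna stood at 133 ± 0.56 CPM in wild-type and 128 ± 5.6 in Ing4+/- Ing5-/- hearts, which did not overlap, and its log2 difference was -0.06 ± 0.06 (edgeR adjusted p = 0.782). Its loader, the RFC complex, has 5 members in the set, of which Rfc1, the large subunit, stood at 119 ± 5.6 and 116 ± 6.0 CPM. Rfc3 stood at 39.2, 44.5, 38.2 and 39.6 CPM in wild-type hearts and 37.9, 42.3, 40.9 and 42.5 in Ing4+/- hearts. Without Ing5 it stood at 50.9, 37.9, 37.9 and 38.5 CPM with both Ing4 alleles and 39.3, 37.3, 36.3 and 36.6 with 1. One heart, Ing5-/- 1, was high. Fen1 and Lig1, which trim and seal Okazaki fragments, stood at 81.6 ± 5.7 and 145 ± 2.8 CPM in wild-type and 81.4 ± 7.0 and 144 ± 7.4 in Ing4+/- Ing5-/- hearts. With a coefficient of variation of 3.76% over all 16 hearts, Lig1 was the steadiest member. Exons of Fen1 overlap the antisense gene Gm10143 for 78.8% of their bases.

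Chromatin assembly factor 1, which places histones on new DNA, has 2 members in the set. Chaf1b stood at 49.4, 51.3, 52.0 and 51.4 CPM in wild-type hearts and 47.0, 45.8, 55.1 and 39.4 in Ing4+/- hearts. Without Ing5 it stood at 43.2, 46.7, 48.3 and 47.6 CPM with both Ing4 alleles and 48.8, 40.5, 47.1 and 45.3 with 1. All hearts without Ing5 were below the wild-type hearts, and the Ing4+/- hearts lay on both sides. The difference in Ing4+/- Ing5-/- against wild-type hearts was -0.17 ± 0.09 (edgeR adjusted p = 0.478). Chaf1a stood at 81.6 ± 3.6 and 81.8 ± 7.8 CPM in the same groups, and 52.5% of its exonic bases overlap Ubxn6 on the other strand.

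Loss of both Ing5 alleles alone also gave no call. Against wild-type, 0 of 40 members were called in Ing5-/- hearts, beside 0.0127% of all genes, and 2 had an unadjusted p under 0.05 (Pold1 and Rrm2; 9.59% of all genes did). The members' median was -0.013, beside 0.013 over all genes, and 23 of 40 lay below 0 (46.8% of all genes). Groups did not overlap for 1 member higher in Ing5-/- hearts, Pold1 (2.48% of all genes), and for 2 lower, Rrm2 and Chaf1b (2.26%). The comparison shares its wild-type hearts with the one above, so the 2 are not independent. No litter held both wild-type and Ing5-/- hearts, so these groups cannot be compared directly within a litter. A fit with litter as a block links them only through litters shared with Ing4+/- or Ing4+/- Ing5-/- hearts. Wild-type 2 and wild-type 3 were littermates, as were Ing5-/- 1 and Ing5-/- 2, and the fit counted each as independent.

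Loss of 1 Ing4 allele alone was compared next. In Ing4+/- against wild-type hearts 0 of 40 members were called, as were 0% of all genes, and 0 members had an unadjusted p under 0.05 (4.73% of all genes did). The median was -0.040, beside 0.005 over all genes, with 28 of 40 below 0 (48.4% of all genes). The members with the lowest p were Cdt1 at -0.16 ± 0.09, Rfc4 at -0.13 ± 0.08 and Rfc2 at -0.10 ± 0.07, each with an edgeR adjusted p of 0.963. Rfc4 stood at 48.0, 45.7, 42.2 and 46.3 CPM in wild-type and 38.5, 44.3, 43.4 and 40.2 in Ing4+/- hearts, and Rfc2 at 96.2, 103, 102 and 95.6 and at 90.8, 92.1, 99.5 and 88.5. Only Pola1 did not overlap, with Ing4+/- hearts at 52.3 to 56.9 and wild-type hearts at 57.0 to 58.5 CPM (2.04% of all genes were lower without overlap and 1.74% higher).

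When Ing5 was lost on an Ing4+/- background (Ing4+/- Ing5-/- against Ing4+/-), 0 of 40 members were called, beside 1.16% of all genes, and the median was 0.001, with 20 of 40 below 0 (50.3% of all genes). The 2 members with an unadjusted p under 0.05 were Pold1 and Rrm2 (13.9% of all genes had such a p), and they were also those that did not overlap, 1 higher (5.22% of all genes) and 1 lower (4.88%). When 1 Ing4 allele was lost on an Ing5-/- background (Ing4+/- Ing5-/- against Ing5-/-), 0 of 40 were called, beside 0.00634% of all genes, with 26 of 40 below 0 (51.1% of all genes). Members without overlap numbered 0 in either direction (1.36% of all genes were higher so and 1.64% lower). Gins2 alone had an unadjusted p under 0.05 (6.63% of all genes), and Gmnn at -0.19 ± 0.10 and Rfc3 at -0.14 ± 0.09 came next (edgeR adjusted p = 0.775 for Gmnn, and higher for Rfc3). Without Ing5-/- 1 these were -0.0997 and -0.030. For the interaction, which asks whether losing 1 Ing4 allele changes a gene by a different amount with and without Ing5, 0 of 40 were called, beside 0% of all genes. The members ranged from -0.25 (Gins2; -0.16 without Ing5-/- 1) to 0.26 (Cdt1; 0.18 without Ing4+/- 4), and 0 had an unadjusted p under 0.05 (5.88% of all genes). Intervals were wider there, and 18 of 40 lay within 1.25-fold.

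Other genes of the pathway were taken from lists chosen by function. Of 45 further replication genes, 0 were called in Ing4+/- Ing5-/- against wild-type hearts (median -0.023), and at an unadjusted p under 0.05 there were 1 higher and 4 lower (11.4% of all genes had such a p). Across the 5 comparisons and the interaction the 1 call among them was Rrm2b, the p53-inducible alternative small subunit of ribonucleotide reductase, in Ing4+/- Ing5-/- against Ing4+/- hearts. It stood at 31.8, 33.0, 33.0 and 40.5 CPM in Ing4+/- hearts and 23.4, 24.7, 21.5 and 29.2 in Ing4+/- Ing5-/- hearts, without overlap, and fell by 0.49 ± 0.12 on the log2 scale (edgeR adjusted p = 0.0436). Wild-type hearts overlapped both groups, at 32.3, 28.1, 23.3 and 27.9 CPM, and Ing5-/- hearts stood at 21.0, 27.2, 23.8 and 25.3. The call stood near the threshold: leaving out single libraries gave adjusted p-values from 0.0167 to 0.148, and it was lost in 9 of 16 such fits. The other alternatives gave 0.00787 (DESeq2) to 0.0937 (without the 3 libraries that stood apart).

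Of 27 tested regulators of S phase entry (E2F factors, Rb family, cyclins, their kinases and inhibitors), 0 were called in Ing4+/- Ing5-/- against wild-type hearts, with a median of -0.035. The cyclin Ccne1 stood at -0.22 (edgeR adjusted p = 0.314) and Ccnd2 at 0.24 (0.318). Of 25 genes of mitosis 0 were called, with 22 below 0 (49.2% of all genes were) and a median of -0.095, and the lowest p-values belonged to Anln, needed for the cleavage furrow, at -0.23 (adjusted p = 0.200), and the kinetochore gene Cenpf at -0.26 (0.214). Their summed level was 3657 ± 91 CPM in wild-type and 3424 ± 371 in Ing4+/- Ing5-/- hearts, and 1 of the latter, at 3928 CPM, was above all wild-type hearts. Of 10 genes of the HBO1 complexes only Ing5 itself was called.

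Markers of some other cell types differed between genotypes. Macrophage markers summed to 10.03 to 16.1 CPM in wild-type, 14.2 to 21.0 in Ing4+/-, 18.7 to 53.9 in Ing5-/- and 40.7 to 62.9 in Ing4+/- Ing5-/- hearts. Against wild-type, 8 of the 10 were called higher in Ing4+/- Ing5-/- hearts, where 0.855% of all genes were called. Epicardial markers summed to 493 to 544 CPM in wild-type and 376 to 460 in Ing4+/- Ing5-/- hearts, without overlap. Neural markers summed to 22.9 to 32.8 and 16.1 to 22.2 CPM in the same groups, also without overlap. Markers of red blood cells ranged from 9061 to 12046 CPM in wild-type and from 7938 to 49626 in Ing4+/- Ing5-/- hearts, with the highest value in Ing4+/- Ing5-/- 2, and 0 of 11 were called. In that heart Rrm2 was lowest of its group and its ratio to Rrm1 was 0.918. With the haemoglobin level as a covariate the Rrm2 difference from wild-type was -0.34 (edgeR adjusted p = 0.134). The part of the macrophage and other markers in the members' values was not tested.

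**Figure D5:**
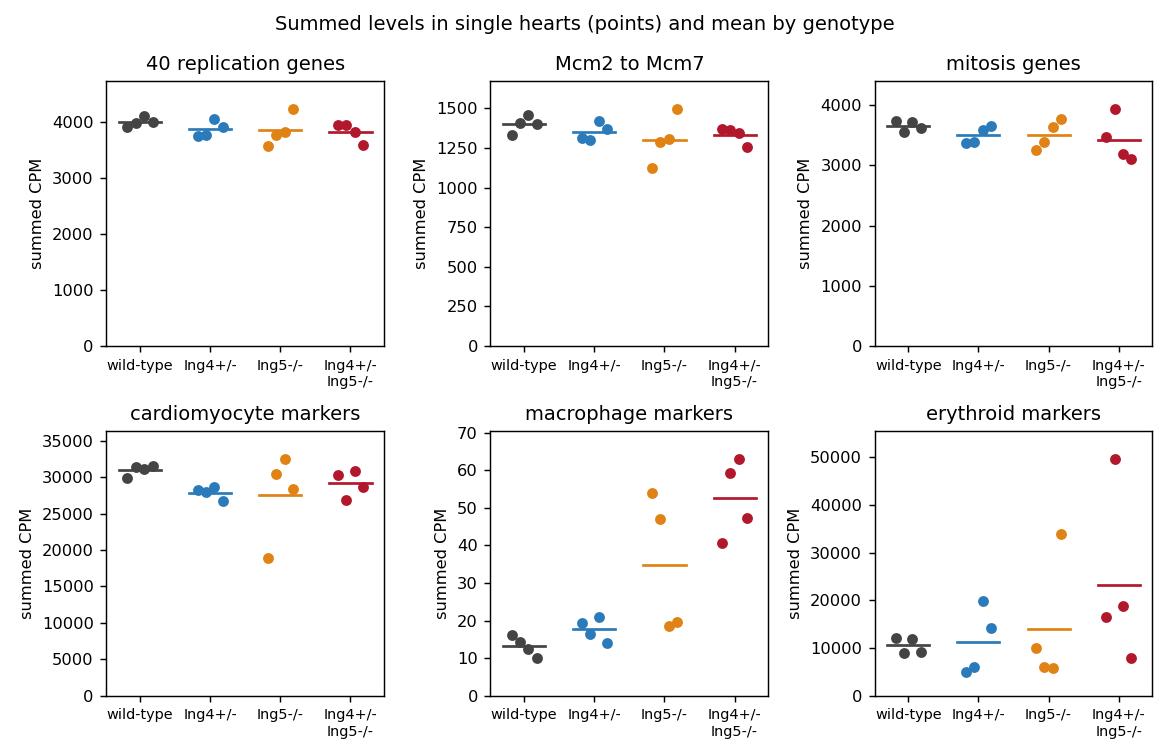
Points are single hearts and lines genotype means of the summed CPM of the 40 members, of Mcm2 to Mcm7, of 25 mitosis genes and of markers of cardiomyocytes, macrophages and red blood cells. The 40 members lie between 3581 and 4230 CPM in every genotype. Macrophage markers reach 62.9 CPM in Ing4+/- Ing5-/-, 53.9 in Ing5-/- and at most 16.1 in wild-type hearts.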

How the data were processed

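RNA of embryonic hearts was sequenced from 16 stranded libraries, per the labels' protocols. The deposited values are raw counts of reads per gene, made by the authors with featureCounts on the mm10 build, per the submitters' processing notes (no source used here states the versions, aligner, annotation or strand setting). The deposited gene length in bases, a value of another kind made by the authors, was used for levels per kb. Gene IDs were matched to symbols of GRCm38.p6. All 16 tables of single samples were equal to the series table.

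Counts were fitted in R 4.3.3 with edgeR 4.0.16 (TMM, factors 0.967 to 1.08; filterByExpr, which removed 11394 genes and kept 99.96% of reads; robust quasi-likelihood fit of 4 group means over 16 libraries; biological coefficient of variation 0.159). Intervals are 95% confidence intervals of the difference between group means, and do not give the range of single hearts. Taken over genes together, libraries of 1 genotype differed by a chi-square of 6.39 to 102 per degree of freedom, far above counting error. This value was not computed for the members alone. The p-values weigh differences of group means against the spread between samples, and the labels do not say whether a sample is 1 embryo. The pipeline was tested on simulated data. The members and gene lists were chosen with earlier results of these data known. Values heart by heart are given for the 3 members of lowest p in each pairwise comparison and for members of each role; Rrm2b and the ratio of Rrm2 to Rrm1 were singled out after their values were seen. Alternatives were DESeq2 1.42.0, limma-voom (limma 3.58.1), other filters and scaling, only the groups compared, litter or replicate number as a block, haemoglobin or Y-linked genes as a covariate, and leaving out each library. Leaving out the 3 libraries that stood apart together was added after seeing the data. Replicate numbers were not taken as pairs, since residuals of same-numbered libraries correlated above 0.1 in only 5 of 24 pairs.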

Additional observations from a re-analysis of the deposited data

Results flagged for a closer look

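In each member and genotype the highest and lowest of the 4 hearts were compared with the others, and in 6 of 160 such groups 1 heart stood far from the other 3, where chance alone flags about 1 in 20, or 8. Mcm5 stood at 216.9 CPM in Ing5-/- 4, where the others of that genotype had 171.5 to 179.2. Rfc3 stood at 50.87 CPM in Ing5-/- 1, where the others had 37.94 to 38.49. Gins4 was low, at 34.62 CPM, in Ing5-/- 3 (others 38.06 to 38.74). Pola1 stood at 62.47 CPM in Ing4+/- Ing5-/- 2 (others 51.83 to 53.54). Chaf1a stood at 83.33 CPM in Ing4+/- 3 (others 75.41 to 76.28), and Rfc5 at 58.67 CPM in wild-type 3 (others 51.74 to 52.87). The 6 values fell in 6 different hearts.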

How the results depend on the processing

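The 3 members of lowest p in each contrast, and Rrm2b in the contrast where it was called, kept their sign there under every alternative. Signs of the other members under the alternatives were not examined. The members' medians changed sign under at least 1 alternative in every contrast except Ing4+/- against wild-type, and over the 11 alternatives to the fit and its settings they ranged from -0.092 to 0.060. In Ing4+/- Ing5-/- against wild-type hearts 1 member, Rrm2, was called with the DESeq2 Wald test, with only the groups compared, without Ing5-/- 1 and without the 3 libraries that stood apart (adjusted p = 0.0232, 0.00576, 0.00348 and 0.00611), and 0 under the other settings, where the adjusted p reached 0.564 with litter as a block. In Ing4+/- Ing5-/- against Ing4+/- hearts 1 member was called in the same 4 settings: Pold1 with the DESeq2 Wald test (0.0437) and Rrm2 in the others (0.0371, 0.00745 and 0.0357). Leaving out 1 library gave 0 to 1 member called in these 2 comparisons and 0 in the rest. DESeq2 called 325 genes in the first and 486 in the second, against 135 and 183. The members' median moved by more than its SD between hearts (0.057) with the haemoglobin covariate (-0.092 in Ing4+/- Ing5-/- against wild-type) and with litter as a block (0.060 in Ing5-/- against wild-type). The replicate block left 0 members called against wild-type, with an adjusted p of 0.112 for Rrm2. Without single libraries the medians ranged from -0.069 to 0.0022 in that comparison. With the 6-letter core words GGCGGG and GCGGGA, 28 in place of 13 members had an E2F match, as did 70.5% of tested genes. With 4 hearts per genotype the members' intervals had a median half-width of 0.175. Differences smaller than a member's own half-width could not be told from 0, even before adjustment for the number of genes. How much of this width came from counting error and how much from the spread between hearts was not tested.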
